A study of Mus musculus with 29 samples.

Results

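The motile cilium and ciliated cell genes examined here are 39 mouse genes for the moving cilium of the airway and for the cells that bear it. They were taken from a list of gene symbols, and all 39 had a probe set among the 18194 genes named on the arrays. Where a gene had several probe sets, the probe set with the highest mean over all arrays stood for it. The level of the set in an array is the mean of log2(signal + 20) over the 39 genes, the signal being the deposited linear intensity. A change of 1 on this scale is close to a doubling for a strong signal and more than a doubling for a weak signal.

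The arrays covered 28 lung tumours and 1 normal lung of mice on a mixed 129 and Bl6 background. All carried CCSP-rtTA, in which the promoter of a club cell gene places a doxycycline-dependent transactivator in airway epithelium, and the normal lung carried it alone. The 8 TI-K primary tumours carried TRE-KrasV12 in addition, an oncogene that the transactivator switches on. The 14 TI-KM primary tumours carried TRE-KrasV12 and TRE-Mad2, a transgene for a spindle checkpoint protein, and the 6 TI-KM recurrences had the same alleles. By its title the study is about relapse once the oncogene is switched off, and the sample labels used here give neither age nor doxycycline schedule. The samples are pieces of lung tissue, so a tumour array can hold airway cells beside tumour cells. In such bulk RNA, fewer cells of a type and less RNA per cell cannot be told apart. The number 76 stands in the titles of TI-KM primaries 1 and 2, which could be from the same mouse. Nothing in the labels says that the other samples of a group came from separate animals, so p-values measure the spread between these samples only.

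A motile cilium is built around a ring of doublet microtubules and a central pair. Dynein arms on the doublets slide them past each other, nexin links turn sliding into bending, and radial spokes carry signals from the central pair to the arms. Parts are carried along the cilium by intraflagellar transport, which immotile cilia use as well. Foxj1 is the transcription factor that switches on the motile program, and RFX factors bind the X-box in promoters of ciliary genes. In the airway, ciliated cells beat mucus outward and lie among secretory club cells.

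The RFX sites are shown here because they are a feature that the choice of genes did not use. RefSeq promoter sequence of the GRCm38.p6 genome, from 250 bases before to 50 bases after the transcription start, was matched for 33 of the 39 genes. Foxj1, Rsph1, Rsph4a, Tppp3, Stk33 and Lrrc6 were not matched. Searched on both strands, the RFX core GTTGCC lay in a promoter of 21 of the 33 genes (63.6%), against 14.1% of 27025 genes in the whole table. The longer X-box, read as GTTNCC, 3 bases of any kind and GNAAC, lay in 5 of 33 (15.2%), namely Spag16, Tekt4, Hydin, Enkur and Pifo, against 0.936% of all genes. An X-box can contain an RFX core, so the counts overlap. The forkhead motif GTAAACA was found for Ak7 alone (3.03%), against 4.05% of all genes. These counts describe letters in a window and not binding. The sequences below run from 150 bases before the start to 10 bases after it, with motif matches in capitals. The first 4 hold an X-box, and the last 2, Dynlrb2 and Fam183b, hold the RFX core and belong to the genes with the largest differences between tumour groups.
Spag16, chr1:69826820-69826979, plus strand: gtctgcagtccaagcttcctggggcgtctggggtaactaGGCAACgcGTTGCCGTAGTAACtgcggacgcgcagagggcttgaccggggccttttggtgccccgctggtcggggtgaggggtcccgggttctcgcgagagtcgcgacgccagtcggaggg
Hydin, chr8:110266827-110266986, plus strand: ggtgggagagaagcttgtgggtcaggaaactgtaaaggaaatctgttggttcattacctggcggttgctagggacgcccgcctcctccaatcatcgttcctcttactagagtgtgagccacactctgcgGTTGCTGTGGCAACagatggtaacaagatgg
Enkur, chr2:21205356-21205515, minus strand: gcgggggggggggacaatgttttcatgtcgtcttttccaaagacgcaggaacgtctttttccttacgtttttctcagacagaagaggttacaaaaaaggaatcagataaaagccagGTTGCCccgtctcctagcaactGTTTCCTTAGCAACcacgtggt
Pifo, chr3:106001488-106001647, minus strand: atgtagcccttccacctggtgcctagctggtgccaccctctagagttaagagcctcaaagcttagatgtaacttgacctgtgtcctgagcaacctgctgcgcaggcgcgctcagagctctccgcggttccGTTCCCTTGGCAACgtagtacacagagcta
Dynlrb2, chr8:116504865-116505024, plus strand: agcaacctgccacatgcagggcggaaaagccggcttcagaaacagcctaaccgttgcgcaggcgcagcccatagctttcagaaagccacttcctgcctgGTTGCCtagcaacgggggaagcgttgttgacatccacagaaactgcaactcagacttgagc
Fam183b, chr11:58801951-58802110, minus strand: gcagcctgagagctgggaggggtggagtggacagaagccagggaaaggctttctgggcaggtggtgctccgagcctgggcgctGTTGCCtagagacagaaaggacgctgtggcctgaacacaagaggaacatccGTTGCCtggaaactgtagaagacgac
In Spag16 the X-box began 103 bases before the start. It began 21 bases before it in Hydin, 12 in Enkur and 20 in this Pifo promoter, which is 1 of 2 listed for the gene.

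Facts that hold for the whole series touch the comparisons. Every array had a 2% trimmed mean of 500.003, while the median signal ran from 69.7 in recurrence 6 to 169.3 in TI-KM primary 3. The 18S ribosomal control signal exceeded 12000 in 6 TI-KM primaries, 4 recurrences and the normal lung, and 5 TI-K primaries carried title numbers above 6000. The other 13 tumours (8 TI-KM primaries, 3 TI-K primaries and 2 recurrences) are called the remaining arrays. The labels give these sets no name. The median signal was 121.4 to 169.3 in the tumours with high 18S signal and 69.7 to 101.6 in the remaining arrays. With all arrays scaled to a common median instead, the cilium level given next differed by 1.04 between recurrences and TI-K primaries and by 0.71 between recurrences and TI-KM primaries. The log2 ratio of 3' to 5' control signal, which falls as RNA is longer, averaged 1.32 ± 0.45 (SD, n = 6) in recurrences and 2.16 ± 0.41 (SD, n = 8) in TI-K primaries. It averaged 2.16 ± 0.67 (SD, n = 14) in TI-KM primaries and was 2.59 in the normal lung. Alveolar type II markers, the genes of surfactant-producing cells, summed to signals of 140640 to 289430 in the tumours and 85254 in the normal lung. Adipocyte markers summed to 154300 in the normal lung and to 10387 at most in a tumour. With 1 array of normal lung, no spread can be given for it.

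The level of the cilium genes varied widely between tumours of 1 group. It was 7.91 in the normal lung. In TI-K primaries it ranged from 6.10 to 7.27 with a median of 6.36, and the mean was 6.48 ± 0.40 (SD, n = 8). In TI-KM primaries it ranged from 6.10 to 8.46 with a median of 6.87, and the mean was 6.86 ± 0.65 (SD, n = 14). The recurrences stood highest on average but overlapped the other groups. Recurrences 1 to 6 had 9.17, 7.56, 7.17, 8.11, 7.53 and 6.25, with a mean of 7.63 ± 0.97 (SD, n = 6). Of the 6, 4 lay above every TI-K primary, 1 lay above every TI-KM primary, and recurrence 6 lay among the lowest tumours. As differences of means, recurrences exceeded TI-K primaries by 1.15 (2.21-fold) and TI-KM primaries by 0.77 (1.71-fold), and TI-KM exceeded TI-K primaries by 0.37 (1.29-fold). The 3 differences share groups, and the pooled SD within the tumour groups was 0.67. The differences depend on the arrays. Among the remaining arrays recurrences exceeded TI-K primaries by 0.50 and TI-KM primaries by 0.19, and without recurrence 1 by 0.84 and 0.47. With the 3 sets of arrays as a block, they were 0.86 and 0.64, and TI-KM exceeded TI-K primaries by 0.22. These means get no test, since the genes were chosen with earlier results of these data known.

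**Figure D1:**
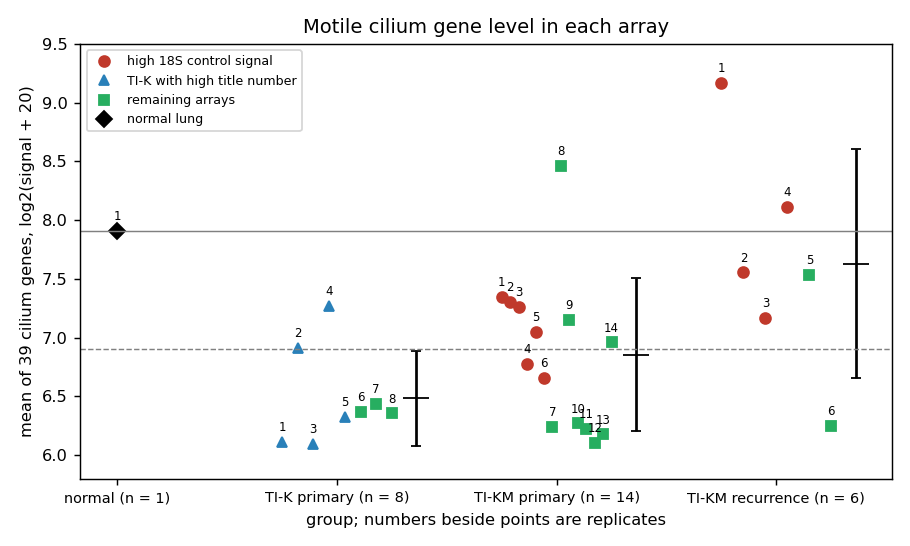
Mean log2(signal + 20) of the 39 cilium genes in each of 29 arrays, by group, with replicate numbers beside the points, symbols for the sets of arrays, and the mean and SD of each tumour group as a bar. The solid line is the normal lung (7.91) and the dashed line lies 1 below it, and 3 tumours sit on or above the solid line.

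To count the tumours that carry the program, a tumour was said to carry it where its level was at least that of the normal lung less 1, a threshold of 6.91. By that rule 14 of 28 tumours carried it: 2 of 8 TI-K primaries, 7 of 14 TI-KM primaries and 5 of 6 recurrences. The values run on past the threshold without a gap. The nearest outside were TI-KM primaries 6 and 4 at 6.66 and 6.78, and the nearest inside were TI-K primary 2 at 6.91 and TI-KM primary 14 at 6.96. At the level of the normal lung itself the count was 3, and at 2 below it all 28 tumours were counted. Within sets, 4 of 4 recurrences and 4 of 6 TI-KM primaries with high 18S signal carried it. So did 2 of 5 TI-K primaries with high title numbers. Among the remaining arrays it was 1 of 2 recurrences, 3 of 8 TI-KM primaries and 0 of 3 TI-K primaries.

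In 3 tumours most of the set lay above the normal lung. In recurrence 1 all 39 genes exceeded the normal lung, and 32 had their highest tumour value there. In TI-KM primary 8 it was 33 genes, and 30 of the 39 were among their 3 highest tumours. In recurrence 4 it was 28 genes, with 23 among their 3 highest. The other tumours had between 0 and 15 genes above the normal lung. TI-KM primary 8 belongs to the remaining arrays, while recurrences 1 and 4 had high 18S signal.

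**Figure D2:**
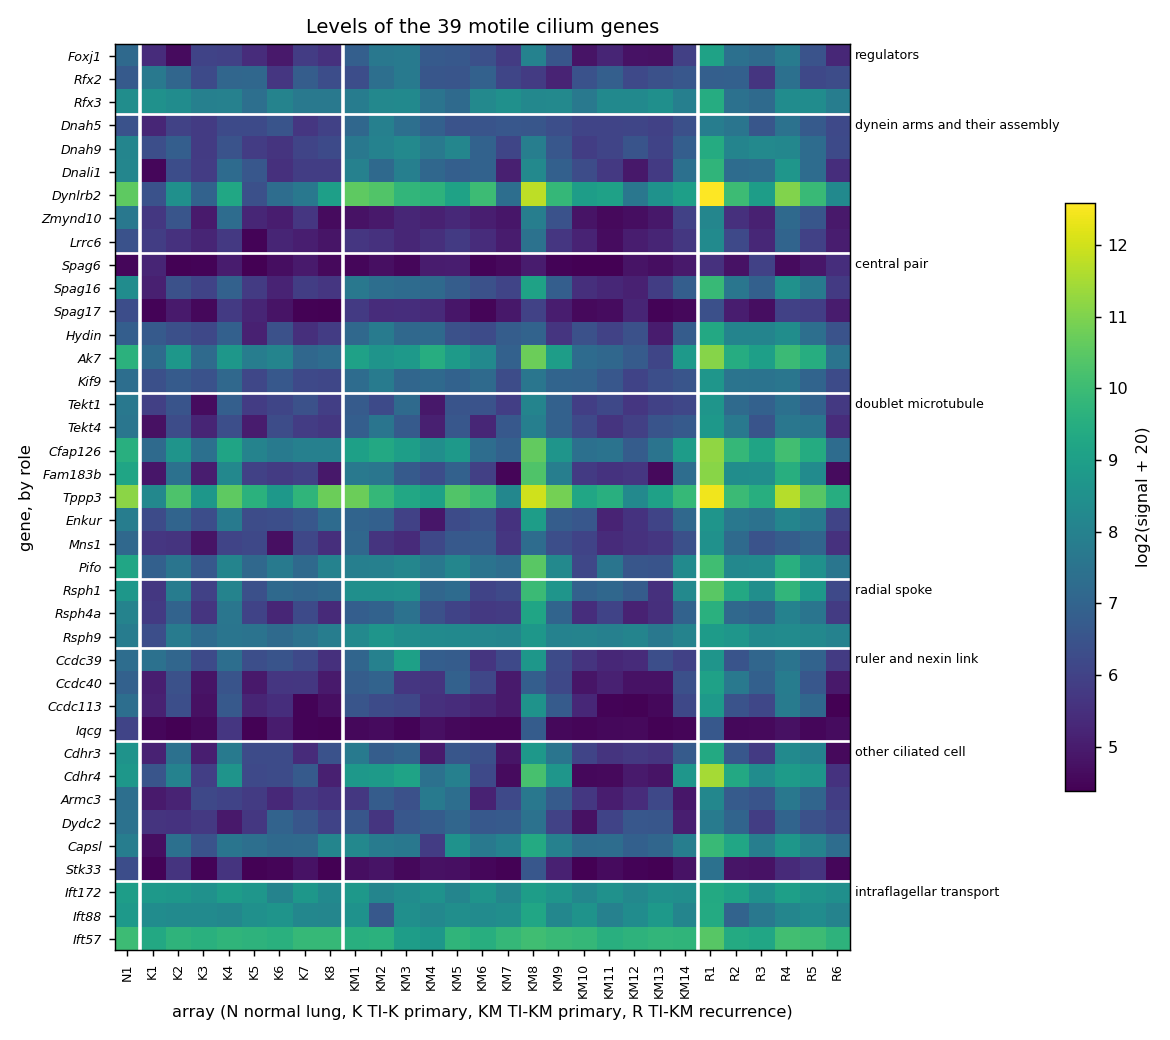
Level of each of the 39 cilium genes, as log2(signal + 20), in the normal lung (N1), the TI-K (K) and TI-KM (KM) primaries and the recurrences (R), with genes ordered by role. The columns of KM8, R1 and R4 are brighter than those beside them over most roles.

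Most cilium genes varied together across tumours. Over the 28 tumours, 33 of 39 genes had a Pearson correlation above 0.5 with the mean of the other genes. The correlations were highest for Spag16 (0.97), Cfap126 (0.96), Fam183b (0.95) and Ccdc113 (0.95). They were lowest for Rfx2 (0.06), Ift88 (0.14), Rfx3 (0.31), Spag6 (0.31), Ift57 (0.37) and Dydc2 (0.46). The points share array scale and sets of arrays, and the values describe these tumours only. The spread differed as much between genes: the highest tumour exceeded the lowest 886.5-fold in signal for Fam183b and 827.6-fold for Cdhr4. It was 2.57-fold for Ift172, 3.40-fold for Ift57, 5.37-fold for Rfx3, 7.34-fold for Rsph9, 8.23-fold for Ift88 and 8.63-fold for Kif9. Very low signals lie near background, which makes such folds imprecise.

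For tests, 34 of the 39 genes passed the filter on weak signal. Spag6 and Spag17 of the central pair, Iqcg of the nexin link, the kinase Stk33 and the dynein assembly factor Lrrc6 did not pass. Spag6 signals ran from 0.815 to 42.9 over the tumours and Lrrc6 signals from 1.78 to 293. A count over the 34 is not a count over all 39, since a gene that is high in a few tumours can pass through those alone. Recurrences were set against TI-K primaries, TI-KM primaries against TI-K primaries, and recurrences against TI-KM primaries, in 1 limma model with all genes. A gene rose or fell where its Benjamini-Hochberg adjusted p over the 14602 genes tested was below 0.05.

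In recurrences against TI-K primaries, 20 of the 34 cilium genes rose and none fell. Of all genes tested, 12.2% rose and 18.9% changed in either direction. The log2 difference was positive for 32 of the 34 genes, and its median was 1.38, against 0.11 for all genes. At an unadjusted p below 0.05, 24 of 34 were higher, against 23.1% of all genes. This count depends on the arrays. With the 3 sets of arrays as a block in the tumour fit, no cilium gene was called (0.0205% of all genes rose there), the median was 0.88, 31 of 34 differences stayed positive and 6 genes had an unadjusted p below 0.05 (4.67% of all genes). The smallest adjusted p from limma was then 0.225. Among the remaining arrays, with 2 recurrences and 3 TI-K primaries, limma called none (0.0342% of all genes rose), 1 was higher at an unadjusted p below 0.05 (5.62% of all genes) and the median was 0.43. Without recurrence 1, 6 of 34 rose (7.81% of all genes), namely Dnah5, Dnah9, Dynlrb2, Tekt4, Rsph9 and Hydin, and the median was 1.03. Without recurrence 4 the count was 11, and without recurrence 2 or TI-K primary 1 it was 12. The share of all genes that rose in those fits is not given here, so these counts cannot be set against it. With the 3' to 5' ratio as a covariate the count was 6 (6.66% of all genes), with a median of 1.26. The part of RNA length and of the array sets in the result was not tested further.

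**Figure D3:**
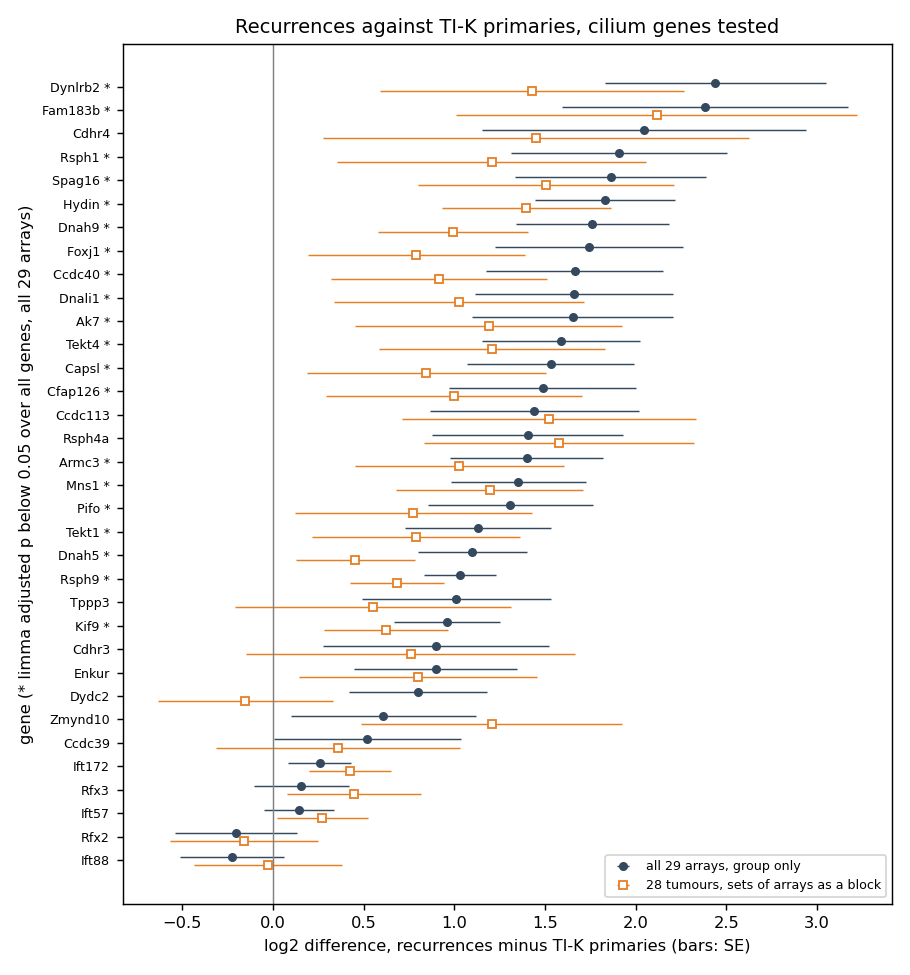
Log2 difference between recurrences and TI-K primaries for the 34 tested cilium genes, with bars of 1 SE, from the fit by group over all 29 arrays (filled) and from the fit of the 28 tumours with the sets of arrays as a block (open). Stars mark the 20 genes with a limma adjusted p below 0.05 in the fit by group; most open points lie nearer to 0 than the filled points, and none passed the test.

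Of the regulators, Foxj1 rose in recurrences. Its signal was 125 in the normal lung. It ran from 4.77 to 45.3 with a median of 24.9 in TI-K primaries, from 6.66 to 239 with a median of 69.6 in TI-KM primaries, and from 19.0 to 529.7 with a median of 140.3 in recurrences. Recurrence 1 was highest, 5 of 6 recurrences and 8 of 14 TI-KM primaries lay above every TI-K primary, and recurrence 6 lay within the TI-K range. The log2 difference to TI-K primaries was 1.74 (SE 0.52), with a limma adjusted p of 0.0213; with the block it was 0.79 and the adjusted p 0.655. Rfx3, an RFX factor of ciliary promoters, ran from 145 to 352 in TI-K primaries and from 128 to 685.8 in recurrences, a difference of 0.16 (limma adjusted p 0.701). Rfx2 differed by -0.21 (adjusted p 0.690). Its other probe sets gave -0.24 to 1.01, so the sign for Rfx2 depends on the probe set.

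Of the 5 tested genes for dynein arms and their assembly, 4 rose in recurrences against TI-K primaries. Dynlrb2, a roadblock light chain found mostly in tissues with motile cilia, had a signal of 1494 in the normal lung. It ran from 62.8 to 601 with a median of 160.1 in TI-K primaries, from 142 to 3499.7 with a median of 667 in TI-KM primaries, and from 287 to 6132 with a median of 983 in recurrences. Of the recurrences, 4 lay above every TI-K primary, and the groups overlapped. Its log2 difference was 2.44 (SE 0.61, limma adjusted p 0.00844), the largest of the 34, and 1.43 with the block (adjusted p 0.543). Dnah9, an outer arm heavy chain, ran from 28.8 to 92.7 in TI-K primaries and from 54.2 to 675 in recurrences, with 5 of 6 above every TI-K primary. It rose by 1.76 (SE 0.42, limma adjusted p 0.00653), but its weaker probe set, with a mean signal of 8.25, gave -0.01. Dnah5, the partner outer arm heavy chain, rose by 1.10 (SE 0.30, limma adjusted p 0.0134), and Dnali1, an inner arm light intermediate chain, by 1.66 (SE 0.55, limma adjusted p 0.0338). Zmynd10, which helps assemble dynein arms before they enter the cilium, had a difference of 0.61 (limma adjusted p 0.403) and a single recurrence above the TI-K range.

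All 4 tested genes of the central pair rose in recurrences against TI-K primaries. Hydin, a very large protein of a central pair projection, had a signal of 95.0 in the normal lung. It ran from 15.01 to 100.2 with a median of 56.7 in TI-K primaries, from 12.1 to 203 with a median of 77.1 in TI-KM primaries, and from 69.9 to 621 with a median of 250.1 in recurrences. Of the recurrences, 5 lay above every TI-K primary and 4 above every TI-KM primary. The log2 difference was 1.83 (SE 0.39, limma adjusted p 0.00298), and 1.40 with the block (adjusted p 0.225). Spag16, a central apparatus protein, rose by 1.86 (SE 0.53, limma adjusted p 0.0163), from a TI-K median of 37.4 to a recurrence median of 181. Ak7, an adenylate kinase of motile cilia, rose by 1.65 (SE 0.55, limma adjusted p 0.0366), and Kif9, a kinesin of the central pair, by 0.96 (SE 0.29, limma adjusted p 0.0235). The other probe sets of Hydin and Spag16 had mean signals of 6.37 to 22.3 and differences of 0.08 to 0.29.

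Of the 3 radial spoke genes, 2 rose in recurrences against TI-K primaries, and Rsph9 had the smallest limma adjusted p of the 34. Rsph9, a protein of the spoke head, had a signal of 209 in the normal lung. It ran from 62.0 to 211 with a median of 160.4 in TI-K primaries, from 183 to 399 with a median of 257 in TI-KM primaries, and from 237 to 455 with a median of 299.6 in recurrences. All 6 recurrences lay above all 8 TI-K primaries, as happened for 2.55% of all genes in either direction. Rsph9 followed the cilium level less closely than most of the set. It exceeded the normal lung in 20 of 28 tumours: 1 TI-K primary, 13 TI-KM primaries and 6 recurrences. In TI-KM primaries 7 and 10, with low cilium levels of 6.24 and 6.27, its signals were 251.7 and 244.0. The log2 difference was 1.03 (SE 0.20, limma adjusted p 0.00152), and 0.68 with the block (adjusted p 0.291). Rsph1, also of the spoke head, ran from 32.2 to 244 in TI-K primaries and from 52.5 to 1421 in recurrences, and rose by 1.91 (SE 0.60, limma adjusted p 0.0263). Rsph4a, which the spoke head needs, had a difference of 1.40 with a limma adjusted p of 0.0574, and 2 of 6 recurrences above the TI-K range.

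Of the 3 tested genes of the ruler and the nexin link, Ccdc40 rose. Ccdc39 and Ccdc40 form the ruler that sets the spacing of arms and spokes along the doublet. Ccdc40 ran from 8.18 to 71.0 with a median of 22.5 in TI-K primaries and from 10.4 to 525 with a median of 142 in recurrences. Recurrences 1 to 5 lay above every TI-K primary and recurrence 6 near the lowest of them. The log2 difference was 1.67 (SE 0.49, limma adjusted p 0.0192). Its partner Ccdc39 ran from 25.6 to 152 in TI-K primaries and from 36.2 to 383 in recurrences, a difference of 0.52 (limma adjusted p 0.488). Ccdc113, a coiled coil protein of the axoneme, had 1.44 (adjusted p 0.0734). Whether the differences of Ccdc39 and Ccdc40 themselves differ was not tested.

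Of the 8 genes of the doublet microtubules, 6 rose in recurrences against TI-K primaries. Fam183b, a protein of the doublets, had a signal of 567 in the normal lung. It ran from 9.40 to 275 with a median of 38.9 in TI-K primaries, from 2.49 to 1253 with a median of 72.5 in TI-KM primaries, and from 4.64 to 2206 with a median of 319.8 in recurrences. Recurrence 6 had the lowest of the recurrence values, below every TI-K primary, and the other 5 lay above all of them. The log2 difference was 2.38 (SE 0.79, limma adjusted p 0.0347), and 2.12 with the block (adjusted p 0.483). Tekt1 and Tekt4, tektins that run along the inside of the doublets, rose by 1.13 (limma adjusted p 0.0469) and 1.59 (0.0138). Mns1, a protein inside the doublets, rose by 1.35 (limma adjusted p 0.0145), and Cfap126, which helps place cilia at the cell surface, by 1.49 (0.0424). Pifo, also known as pitchfork, rose by 1.31 (limma adjusted p 0.0430). Tppp3, a tubulin-binding protein abundant in ciliated cells, ran from 276 to 1687 in TI-K primaries and from 697 to 5458 in recurrences, a difference of 1.01 with a limma adjusted p of 0.160. Enkur, a protein inside the doublets, had 0.90 (adjusted p 0.150).

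The 3 intraflagellar transport genes, whose products also serve immotile cilia, showed no call. Ift57 had a signal of 997 in the normal lung, 621 to 916 in TI-K primaries, 406 to 1060.1 in TI-KM primaries and 578 to 1382 in recurrences. The medians of 813, 816 and 907.4 lay close together, and the groups overlapped. Its log2 difference between recurrences and TI-K primaries was 0.14 (limma adjusted p 0.627). Ift172 had 0.26 (adjusted p 0.290) and Ift88 -0.23 (adjusted p 0.601). Their mean level spanned 8.76 to 8.96 among TI-K primaries and 8.47 to 9.73 among recurrences.

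Of the 5 tested genes of other or less settled role in ciliated cells, Armc3 and Capsl rose. Armc3, an armadillo repeat protein, ran from 11.2 to 51.3 in TI-K primaries and from 38.8 to 269.6 in recurrences, with 5 of 6 above the TI-K range, and rose by 1.40 (SE 0.42, limma adjusted p 0.0224). Capsl, a calcium-binding protein, rose by 1.53 (SE 0.46, limma adjusted p 0.0226). Cdhr4, a cadherin family protein, ran from 13.9 to 374 in TI-K primaries, from 3.41 to 1163 in TI-KM primaries and from 27.4 to 2824 in recurrences. Its log2 difference of 2.05 had an SE of 0.89 and a limma adjusted p of 0.0998. Cdhr3, a cadherin family protein of ciliated cells, had 0.90 (adjusted p 0.306), and Dydc2 had 0.80 (adjusted p 0.128).

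**Figure D4:**
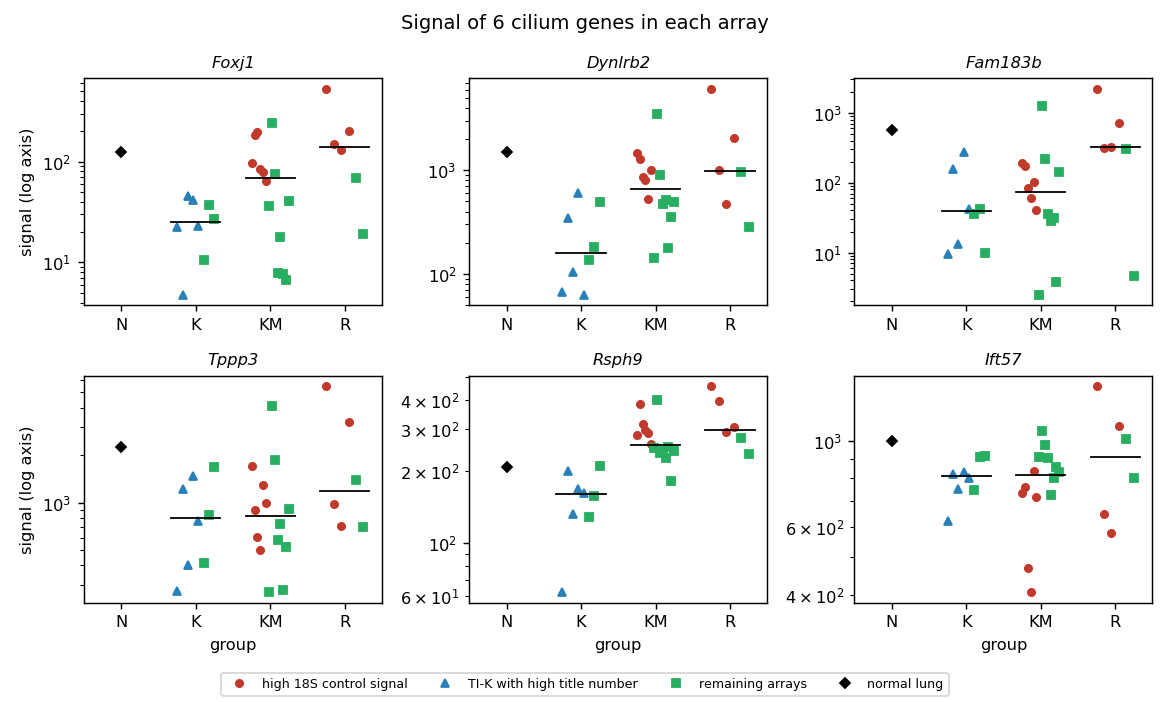
Signal, on log axes that differ between panels, of Foxj1, Dynlrb2, Fam183b, Tppp3, Rsph9 and Ift57 in each array of the normal lung (N), the TI-K (K) and TI-KM (KM) primaries and the recurrences (R), with a line at each tumour group's median. All 6 recurrences lie above all 8 TI-K primaries for Rsph9, while for Fam183b the recurrences run from 4.64 to 2206.

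Between the primary tumours, 2 of 34 cilium genes (5.88%) rose in TI-KM against TI-K, and none fell. That share was near the 5.5% of all genes tested that rose, and 8.01% changed in either direction. The difference was positive for 28 of 34, with a median of 0.43 against 0.08 for all genes. At an unadjusted p below 0.05, 5 were higher, a smaller share than the 18.7% of all genes. Rsph9 rose by 0.81 (SE 0.16, limma adjusted p 0.00626), and 13 of 14 TI-KM primaries lay above every TI-K primary. Dynlrb2 rose by 1.72 (SE 0.50, limma adjusted p 0.0353), with 7 of 14 above every TI-K primary. Dnah9 had 0.89 (adjusted p 0.0934), Foxj1 0.81 (0.213) and Spag16 0.79 (0.233). With the sets as a block Rsph9 had 0.54 and Dynlrb2 0.96, and neither they nor any other of the 14602 genes was called higher by limma (0%). At an unadjusted p below 0.05, 1 of the 34 was then higher, against 2.2% of all genes. The count fell to 1 when TI-K primary 1, 3 or 5 or TI-KM primary 1, 2, 4 or 6 was left out. Shares of all genes are not given for those fits. The count was also 1 when the pair with title number 76 was averaged, where 766 of 14602 genes were called in either direction.

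Recurrences against TI-KM primaries, which have the same alleles, gave no call among the 34 genes, where 0.0411% of all genes rose and 0.26% changed in either direction. The difference was positive for 33 of 34, with a median of 0.85 against 0.04 for all genes. An unadjusted p below 0.05 was reached by 16 of 34, all higher, against 5.84% of all genes. With the block it was 8 (6.18% of all genes), with the 3' to 5' ratio as a covariate 2 (2.63%), and without recurrence 1 it was 3 (3.94%), with a median of 0.53. The largest differences were those of Fam183b at 1.77 (limma adjusted p 0.306), Cdhr4 at 1.61 (0.414), Hydin at 1.39 (0.0808), Ccdc40 at 1.32 (0.200) and Rsph1 at 1.32 (0.316). Hydin had the smallest adjusted p of the 34. Among the 10 arrays with high 18S signal, 6 primaries and 4 recurrences, the median was 0.99, and limma called no cilium gene (0% of all genes rose) while 19 were higher at an unadjusted p below 0.05 (3.97% of all genes). Among the remaining arrays, 8 and 2, the median was 0.13, limma called none (0.0137% of all genes rose), and none of the 34 had an unadjusted p below 0.05, against 3.63% of all genes higher. Without recurrence 6, 2 of 34 rose, against 0.363% of all genes. This comparison shares the recurrences with the comparison to TI-K primaries.

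Against the 1 normal lung no cilium gene was called in any tumour group. The spread of normal lung was assumed to equal that of the tumours, and with a single array the lack of a call does not show that levels were alike. Of all genes, 13.5% changed in TI-K primaries, 14.9% in TI-KM primaries and 12.5% in the recurrences. The median difference of the 34 genes was -1.62, -1.16 and -0.23 in that order, and these share the normal array. At an unadjusted p below 0.05, 10, 1 and 0 of the 34 were lower, against 12.9%, 12.1% and 11.8% of all genes, and none was higher. The largest differences of TI-K primaries were those of Fam183b at -3.17 (limma adjusted p 0.192), Dynlrb2 at -2.88 (0.114), Spag16 at -2.50 (0.113), Cdhr3 at -2.39 (0.219) and Dnali1 at -2.19 (0.194). In TI-KM primaries they were Fam183b at -2.57 (0.293), Zmynd10 at -2.34 (0.110), Cdhr3 at -2.14 (0.265), Spag16 at -1.71 (0.296) and Ccdc113 at -1.62 (0.379). In recurrences they were Cdhr3 at -1.49 (0.489), Zmynd10 at -1.42 (0.404), Hydin at 1.11 (0.390), Fam183b at -0.79 (0.797) and Dydc2 at -0.77 (0.563). Foxj1 differed by 0.03 between recurrences and the normal lung, with 4 of 6 recurrences above it.

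Beyond the 39 genes, other genes of the motile axoneme were counted from a list. Of 61 that were tested, 23 rose (37.7%, against 12.2% of all genes) and none fell in recurrences against TI-K primaries, with a median of 0.998. With the block limma called none, 11 were higher at an unadjusted p below 0.05 (4.67% of all genes), and the median was 0.54. Without recurrence 1, 12 of the 61 rose (19.7%, against 7.81% of all genes). The 5 with the highest mean signal were not called. Tuba1a and Tubb4b, tubulins that many cells use, differed by -0.11 (limma adjusted p 0.752) and 0.42 (0.140). Nme7 differed by -0.06 (adjusted p 0.871) and Dnal1, a dynein light chain, by -0.25 (0.356). Tmem212 differed by 2.10 (adjusted p 0.0946), and its signal was 1407 in the normal lung, 3788 in recurrence 1 and 3262 in TI-KM primary 8. In TI-KM against TI-K primaries 7 of the 61 rose, against 5.5% of all genes.

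Among regulators of multiciliogenesis, the program by which a cell makes many cilia, 2 of 10 tested genes rose in recurrences against TI-K primaries, against 12.2% of all genes. They were Trp73, a p53 family factor of the program, at 1.01 (SE 0.34, limma adjusted p 0.0387) and Cdc20b at 1.09 (SE 0.36, limma adjusted p 0.0339). Neither was called with the block or without recurrence 1. Myb, which acts early in the program, was 2.83-fold higher on average (adjusted p 0.101), with signals of 864 in recurrence 1, 474 in TI-KM primary 8 and 242 in the normal lung. Ccno, a cyclin of centriole production, had -0.37 (adjusted p 0.578) and Deup1, a protein of the deuterosome, 0.67 (0.280). The transcription factors E2f4, E2f5, Tfdp1, Rfx1 and Rfx5 had 0.74 (adjusted p 0.112), 0.08 (0.707), 0.17 (0.444), 0.27 (0.375) and 0.06 (0.852). Of 35 other genes for intraflagellar transport and ciliary motors, 2 rose, a smaller share than the 12.2% of all genes, with a median of 0.10. Of 8 cytoplasmic relatives of cilium proteins, 3 rose against the same 12.2%: Dynlrb1 at 0.74 (limma adjusted p 0.0469), Dync1li1 at 0.72 (0.0334) and Dynll2 at 1.39 (0.00779). With the block none of these was called.

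Some markers of club cells, which line the same airways, also rose. Of 16 tested, 6 rose in recurrences against TI-K primaries, against 12.2% of all genes, with a median of 1.20, and the other 10 did not pass the test. With the block 1 was called (0.0205% of all genes rose there), and the club median was 1.39 where the cilium median was 0.88. Among the remaining arrays 3 were called (0.0342% of all genes rose), with a median of 1.30 against 0.43 for the cilium genes. The mean level of 17 club cell genes was 10.88 in the normal lung, 10.14 ± 0.69 (SD, n = 8) in TI-K primaries, 10.41 ± 0.82 (SD, n = 14) in TI-KM primaries and 11.1 ± 0.63 (SD, n = 6) in recurrences. TI-KM primary 8 had the highest, 12.29, and recurrences 1 and 4 had 11.60 and 11.13. The summed club signal ran from 36687 to 116070 in TI-K primaries, from 35704 to 171550 in TI-KM primaries and from 66709 to 171100 in recurrences. No club gene was listed at 0 in any array. CCSP, whose promoter drives the transactivator, is the club cell gene Scgb1a1. The part of airway tissue in the cilium gene levels was not tested.

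**Figure D5:**
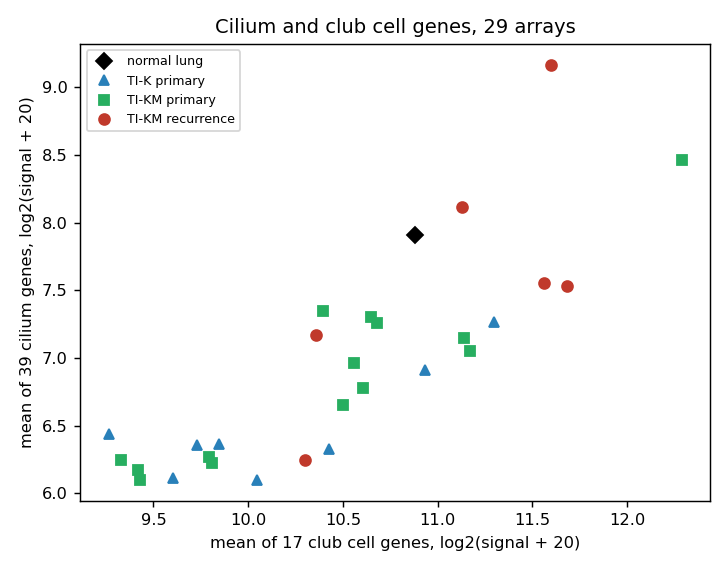
Mean log2(signal + 20) of the 39 cilium genes against that of 17 club cell genes in each of 29 arrays, with symbols by group. TI-KM primary 8 lies at the upper right with 12.29 and 8.46, recurrence 1 is highest in cilium genes at 9.17, and recurrence 6 lies at 10.30 and 6.25.

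Markers of other cell types were also summed. The ependymal and mesothelial list of 5 genes, which includes Foxj1 itself, summed to 2767 in the normal lung and 331 to 967 in TI-K primaries. It summed to 190 to 1596 in TI-KM primaries and 500 to 5095 in recurrences. In recurrences against TI-K primaries 2 of the 5 rose, against 12.2% of all genes, and Foxj1 was 1 of the 2. Basal cell markers, of the stem cells of the upper airway, summed to 553 in the normal lung, 90.7 to 227 in TI-K primaries, 110.4 to 457 in TI-KM primaries and 138 to 1047 in recurrences. Other lists ran the other way. Testis germ cell markers had median sums of 6092.6 in TI-K primaries, 5684.4 in TI-KM primaries and 1200.9 in recurrences. Macrophage markers had 16082, 15396 and 13701 in the same order. Neuroendocrine, goblet and tuft, endothelial, erythroid, muscle and adipocyte sums had their highest tumour median in recurrences. The part of these cell types in the cilium gene levels was not tested.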

How the data were processed

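RNA from 28 lung tumours and 1 normal lung was measured on 1 expression array each. Each deposited value is a linear intensity for 1 of 45101 probe sets, made with MAS5, per the submitters' processing notes, with no version given in the sources used here. The series text names the MOE430A 2.0 array, while the deposited file holds 45101 probe sets. Read depth does not apply to arrays, whose number limits the precision. Probe sets were named through GEO's platform annotation, with symbols updated from RefSeq (GRCm38.p6).

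An offset of 20 was added before log2, which understates changes of weak genes. Probe sets above the 40th percentile of their array in 6 or more arrays were tested, and each gene was represented by its strongest probe set. All 29 arrays entered 1 limma model (version 3.58.1, R 4.3.3, data.table version 1.17.8, jsonlite 2.0.0) with the 4 groups as its term, eBayes with a variance trend and Benjamini-Hochberg adjustment over 14602 genes. The model was tested on simulated data.

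Genes are named where they are Foxj1, the strongest of their role, called in any comparison or among the 5 largest differences of a comparison. Among other genes the rule names the 5 strongest axoneme genes, the multiciliogenesis regulators tested and the 5 genes most like the cilium level; Ift172, Ift88, Rfx2, Rsph4a and others outside it were added after their values were seen. The cilium genes, lists and sets of arrays were chosen with earlier results of these data known. Alternatives covered scaling, offset, filter, probe set choice, the array sets, the 3' to 5' ratio and leaving out each array.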

Additional observations from a re-analysis of the deposited data

Results flagged for a closer look

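Within groups of 4 to 10 arrays, 60 groups of values of the named cilium genes and the cilium level were examined for an array far from the others, and 2 stood out, where chance gives about 1 in 20. Rsph9 was at 6.357 on the log2 scale in TI-K primary 1, below the nearest TI-K primary at 7.217. Tekt1 was at 4.661 in TI-K primary 3, below the nearest at 5.848. Without TI-K primary 1, the number of cilium genes that rose in recurrences against TI-K primaries was 12 in place of 20. The share of all genes that rose in that fit is not given here.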

How the results depend on the processing

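No paired analysis was possible because the title numbers are not shared between the groups compared. Of 160 settings of the 13 main results other than leaving out an array, 147 left a count within 1.5 times that given, or a level difference within the pooled SD of 0.67 from it, and 13 moved it further. That SD is wide: among remaining arrays the level difference of recurrences was 0.50 to TI-K primaries and 0.19 to TI-KM primaries, in place of 1.15 and 0.77. In recurrences against TI-K primaries the count of cilium genes called was 9 with the 60th percentile as filter, 6 with the 3' to 5' ratio, 0 with the block and 0 among remaining arrays. With that filter 1841 of 11280 genes were called in either direction. Of 14602 genes, 1558 were called with the ratio, 14 with the block and 19 among remaining arrays. In recurrences against TI-KM primaries the cilium count was 1 with a common median and 1 with quantile normalization, where 33 and 72 of 14602 genes were called. In TI-KM against TI-K primaries it was 1 with the title number 76 pair averaged, where 766 of 14602 genes were called. It was 0 with the block and 0 among remaining arrays, where no gene was called. For TI-K primaries against normal the count also moved among remaining arrays, but that fit holds 1 normal array, so its count is not given. The level difference there was -1.52. The number of tumours carrying the program was 3 at the normal level and 28 at 2 below it, and 12 to 16 under other scalings, offsets and choices of genes. The level difference of recurrences to normal was -1.02 among remaining arrays. In the high-18S set no comparison with TI-K primaries was run, since it holds none.

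Leaving out each array, the called counts ran from 1 to 2 (TI-KM against TI-K primaries), 0 to 2 (recurrences against TI-KM primaries), 6 to 24 (recurrences against TI-K primaries), 0 to 0 (TI-K against normal), 0 to 1 (TI-KM against normal; 1 without TI-KM primary 8) and 0 to 0 (recurrences against normal). The level differences ran from 0.25 to 0.48, 0.47 to 1.05, 0.84 to 1.42, -1.53 to -1.37, -1.18 to -0.99 and -0.58 to -0.0008 in that order. Of the called counts, the 6 without recurrence 1 stood beside 7.81% of all genes that rose. The 2 without recurrence 6 stood beside 0.363%. For the other fits the share of all genes is not given here, so the ranges of counts cannot be set against it. Where the sign turned, the ranges in recurrences against normal were Ak7 -0.56 to 0.15, Ccdc39 -0.52 to 0.0509, Ccdc40 -0.13 to 0.71, Cdhr4 -0.55 to 0.63, Cfap126 -0.38 to 0.41, Dnah9 -0.52 to 0.13, Foxj1 -0.34 to 0.42, Kif9 -0.15 to 0.34, Mns1 -0.54 to 0.0562, Rsph1 -0.21 to 0.65 and Tekt4 -0.63 to 0.0287. In TI-KM against TI-K primaries they were Ccdc39 -0.11 to 0.19, Ift57 -0.11 to 0.0089 and Tppp3 -0.0352 to 0.33. Rfx3 ran from -0.11 to 0.34 in recurrences against TI-K primaries and from -0.22 to 0.23 against TI-KM primaries.

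Under the other settings 39 differences of named genes turned sign, none of them past the threshold. With a common median, Rfx3 was -0.0043 (recurrences against TI-KM) and Cdhr4 -1e-04 (recurrences against normal). With quantile normalization Cfap126 was 0.0302 in recurrences against normal. With an offset of 5, Foxj1 and Cdhr4 were -0.0406 and -0.0689 there. With the mean of all probe sets, Ift57 was 0.20 in TI-KM against TI-K primaries, and 0.26, 0.46 and 0.58 for TI-K, TI-KM and recurrences against normal; Rfx3 was -0.032 in recurrences against TI-KM, and Cdhr4 -0.0871 against normal. Without probe sets that may cross-hybridize, Cdhr4 was -0.18 in recurrences against normal. With the block, TI-KM against TI-K gave Tppp3 -0.20, Ccdc40 -0.11 and Pifo -0.0802. Among remaining arrays, Tppp3 was -0.12 and Ift57 0.0374 in that comparison. Recurrences against TI-KM gave Rfx3 -0.0871, Tekt4 -0.0458, Kif9 -0.0322 and Capsl -0.0499 there, and Dnah5 was -0.18 in TI-KM against normal. Recurrences against normal gave Foxj1 -1.30, Rsph1 -1.23, Cdhr4 -1.60, Ccdc40 -1.15, Kif9 -0.68 and Capsl -0.18. With high-18S arrays only, Hydin was 0.15 in TI-KM against normal. Recurrences against normal then gave Fam183b 0.17, Dynlrb2 0.0756, Ccdc39 0.14, Ak7 0.23, Dnah9 0.37, Dnali1 0.10, Tekt4 0.0433, Cfap126 0.53 and Mns1 0.10. With the 3' to 5' ratio, Ift57 was -0.0178 in recurrences against TI-K. The cause was not tested.

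The normal lung is 1 array, the sets of arrays are not named in the labels, and the block for recurrences against TI-K primaries rests on few arrays that share a set. Signals near background carry little information.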

Other observations

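Outside all cilium lists, the 5 genes whose log2 levels were most like the cilium level over the 28 tumours were Stmnd1 (Pearson correlation 0.97), Fam166c (0.96), Fam216b (0.94), Cfap299 (0.94) and Elmod1 (0.93). Without the 2 tumours farthest from the median cilium level the values were 0.96, 0.93, 0.91, 0.90 and 0.89, over 26 tumours. Among the 13 remaining arrays they were 0.98, 0.93, 0.95, 0.96 and 0.95. The genes were picked for this likeness and the tumours share scale and sets of arrays, so the values are a description. The lists do not hold every cilium gene, so a gene outside them can still belong to the cilium. Cfap299, for example, shares its name prefix with the listed Cfap126. Stmnd1 had signals of 505 in the normal lung, 1934 in recurrence 1, 1143 in TI-KM primary 8 and 996 in recurrence 4. Fam166c had 186, 792, 418 and 302 in the same 4 arrays.

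Spag6l, a close relative of the weakly detected Spag6, was looked at after its values were seen. Its signal was 19.9 in the normal lung, 413 in recurrence 1 and 163 in TI-KM primary 8, while Spag6 reached 42.9 at most.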
